A study of Mus musculus with 25 samples.

Results

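The 9 neural tube patterning homeobox genes examined here were En1, En2, Dbx1, Dbx2, Gbx1, Gbx2, Gsx1, Gsx2 and Vsx1, out of 20665 autosomal protein-coding genes. They were chosen by name as a set of regulators, and for each the length covered by H3K27me3 peaks was measured over its mm10 gene record and 5 kb on both sides, a stretch called its window below. The peaks came from 3 deposited lists, one each for neural progenitor cells (NPC) and for lines A and B of mouse embryonic fibroblasts (MEF). All 9 genes were found, and each lies on an autosome.

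The study asked about transcriptional memory at Polycomb target genes. Wild-type NPC, made from embryonic stem cells, were profiled by CUT&RUN, a method in which an antibody guides a nuclease to release marked chromatin. They were treated with 2 PRC2 inhibitors, UNC1999 at 2 uM together with A395 at 4 uM, or taken after washout of both, or untreated. The c-myc-immortalized MEF gave ChIP-seq libraries as Ezh2 -/-, as Ezh2 -/- with retroviral pMSCV-Ezh2 and as wild type in line A, and as reversible Ezh2 -/-, as endogenous rescue and as wild type in line B. Each of these H3K27me3 groups held 2 libraries, and 7 further line A libraries (input, RNA polymerase II, H3K4me3 and H3K36me3) were not used here. The MEF lists are each named for wild-type together with Ezh2 -/- libraries, and the name of the NPC list does not mention a treatment. No effect of inhibition, washout, Ezh2 loss or rescue could therefore be read from the lists. The lists give positions without heights or read counts, so the depth behind them is unknown. With 1 list per cell system, no difference between lists could be set against a spread between replicates, no test was made, and between NPC and MEF the assay changed along with the cell type.

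H3K27me3 is the histone mark placed by Polycomb repressive complex 2 (PRC2), whose catalytic subunit is Ezh2, and it is found over developmental genes that a cell type keeps silent. The genes of this set encode homeodomain transcription factors that divide the neural tube into territories. The Engrailed genes En1 and En2 act around the midbrain-hindbrain boundary, and the gastrulation brain homeobox gene Gbx2 at and behind it. Dbx1 and Dbx2 mark progenitors at intermediate levels of the spinal cord, and Gsx1 and Gsx2 pattern the ventral forebrain and the dorsal spinal cord. Gbx1 acts in the spinal cord, and Vsx1 acts in spinal interneurons and in bipolar cells of the retina.

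Peaks covered most of these genes widely in both fibroblast lines and sparsely in NPC. En2, Dbx1, Gbx2, Gsx1 and Gsx2 had at least 50% of the window covered in both lines, while in NPC Vsx1 alone did. Vsx1 was also the only member covered more in NPC than in a fibroblast line, and En1 had 0 bp covered in each list. Both lines together had at least 50% at these 5 genes, against 5.91% of all genes. The counts at 50% were 1 of 9 in NPC, 5 in line A and 5 in line B, against 3.91%, 9.98% and 9.71% of all autosomal protein-coding genes. Any coverage at all was found at 6 members in NPC, 8 in line A and 8 in line B, against 31.9%, 40.2% and 40.9% of all genes. The median covered share of the 9 windows was 20.1% in NPC, 71.1% in line A and 76.5% in line B. The median over all genes was 0% in each list. Gbx1 in line A (48.6%), and Gbx1 (46.7%), Dbx2 (45.9%) and Vsx1 (43.6%) in line B, lay just under 50%.

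**Figure D1:**
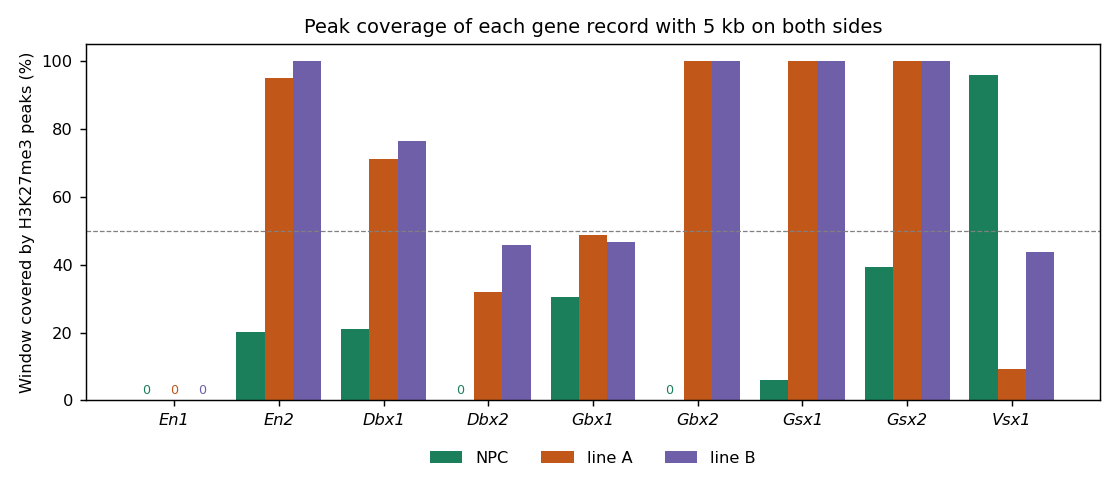
Share of each member's window (gene record and 5 kb on both sides) covered by H3K27me3 peaks, in percent, with 1 bar per peak list and the 50% level dashed. En1 is at 0 in each list, Gbx2, Gsx1 and Gsx2 reach 100% in both fibroblast lines, and Vsx1 has 96.0% in NPC, 9.20% in line A and 43.6% in line B.

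The promoters help to place the peaks. RefSeq (build GRCm38.p6) gave a transcription start and promoter for 7 of the members, and En2 and Gbx1 are named without one. The 250 bases before the start are printed for 5 members, picked after the peaks were seen to show bare, wholly covered and partly covered starts, 5′ to 3′ along the gene, with each CpG dinucleotide in capitals.
En1 (chr1:120602237-120602486, plus strand): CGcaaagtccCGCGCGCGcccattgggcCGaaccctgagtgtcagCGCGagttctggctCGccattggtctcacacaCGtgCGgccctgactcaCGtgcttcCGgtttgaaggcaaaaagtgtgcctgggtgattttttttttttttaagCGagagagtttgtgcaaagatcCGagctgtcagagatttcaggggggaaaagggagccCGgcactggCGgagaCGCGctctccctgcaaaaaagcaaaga
Gbx2 (chr1:89931177-89931426, minus strand): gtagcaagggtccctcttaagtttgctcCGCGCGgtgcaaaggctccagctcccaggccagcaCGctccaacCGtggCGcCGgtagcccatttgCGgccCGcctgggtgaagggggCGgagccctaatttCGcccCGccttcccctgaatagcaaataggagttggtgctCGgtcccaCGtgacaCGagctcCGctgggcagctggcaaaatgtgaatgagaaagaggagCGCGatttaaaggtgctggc
Gsx1 (chr5:147188446-147188695, plus strand): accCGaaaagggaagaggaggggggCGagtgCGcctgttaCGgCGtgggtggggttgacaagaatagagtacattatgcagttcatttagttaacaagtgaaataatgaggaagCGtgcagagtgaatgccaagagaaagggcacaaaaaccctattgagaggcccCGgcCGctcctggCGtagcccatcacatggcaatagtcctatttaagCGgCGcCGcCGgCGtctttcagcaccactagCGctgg
Dbx2 (chr15:95654772-95655021, minus strand): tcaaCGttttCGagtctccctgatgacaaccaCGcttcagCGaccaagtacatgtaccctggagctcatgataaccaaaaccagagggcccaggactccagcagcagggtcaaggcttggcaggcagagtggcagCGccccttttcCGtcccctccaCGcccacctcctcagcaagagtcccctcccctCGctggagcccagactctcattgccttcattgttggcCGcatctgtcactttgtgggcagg
Vsx1 (chr2:150689138-150689387, minus strand): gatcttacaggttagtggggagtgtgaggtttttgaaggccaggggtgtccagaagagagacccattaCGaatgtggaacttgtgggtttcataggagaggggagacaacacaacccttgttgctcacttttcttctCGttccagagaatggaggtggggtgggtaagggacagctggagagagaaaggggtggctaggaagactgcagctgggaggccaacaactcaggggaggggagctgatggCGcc

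CpG-rich promoters are the usual sites of PRC2 in mammals. Vsx1 had 3 CpG in these 250 bases and Dbx2 had 9, while Dbx1 had 12, Gsx1 15, Gsx2 16, Gbx2 18 and En1 19. The median was 15.0 over the 7 members and 10.0 over 16457 autosomal promoters, of which 28.7% had as few CpG as Vsx1 and 26.6% as many as En1. The hexamer CACGTG, which reads the same on both strands, was present in En1, Gbx2 and Gsx2, and in 6.72% of all promoters. On either strand, TATAAA was present in Dbx1 and Gsx2 (12.54% of all promoters) and CCAAT in En1 and Dbx1 (36.3%). These motifs were chosen after the sequences were seen, and a match describes the letters only.

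The transcription start lay inside a peak for 2 of the 7 members in NPC (Gsx1 and Vsx1), for 4 in line A (Dbx1, Gbx2, Gsx1 and Gsx2) and for 6 in line B (the same 4 with Dbx2 and Vsx1). Over 16457 genes with a listed start, the shares were 8.92% in NPC, 12.6% in line A and 13.9% in line B. The printed 250 bases of Gbx2 and Gsx1 were wholly under peaks in both fibroblast lines. In NPC 0 bases of the Gbx2 promoter were covered, and 173 of 250 bases of the Gsx1 promoter were. The Vsx1 promoter, with the fewest CpG, was covered over all 250 bases in NPC and line B, and over 0 in line A. The En1 promoter, with the most, was covered over 0 bases in each list.

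**Figure D2:**
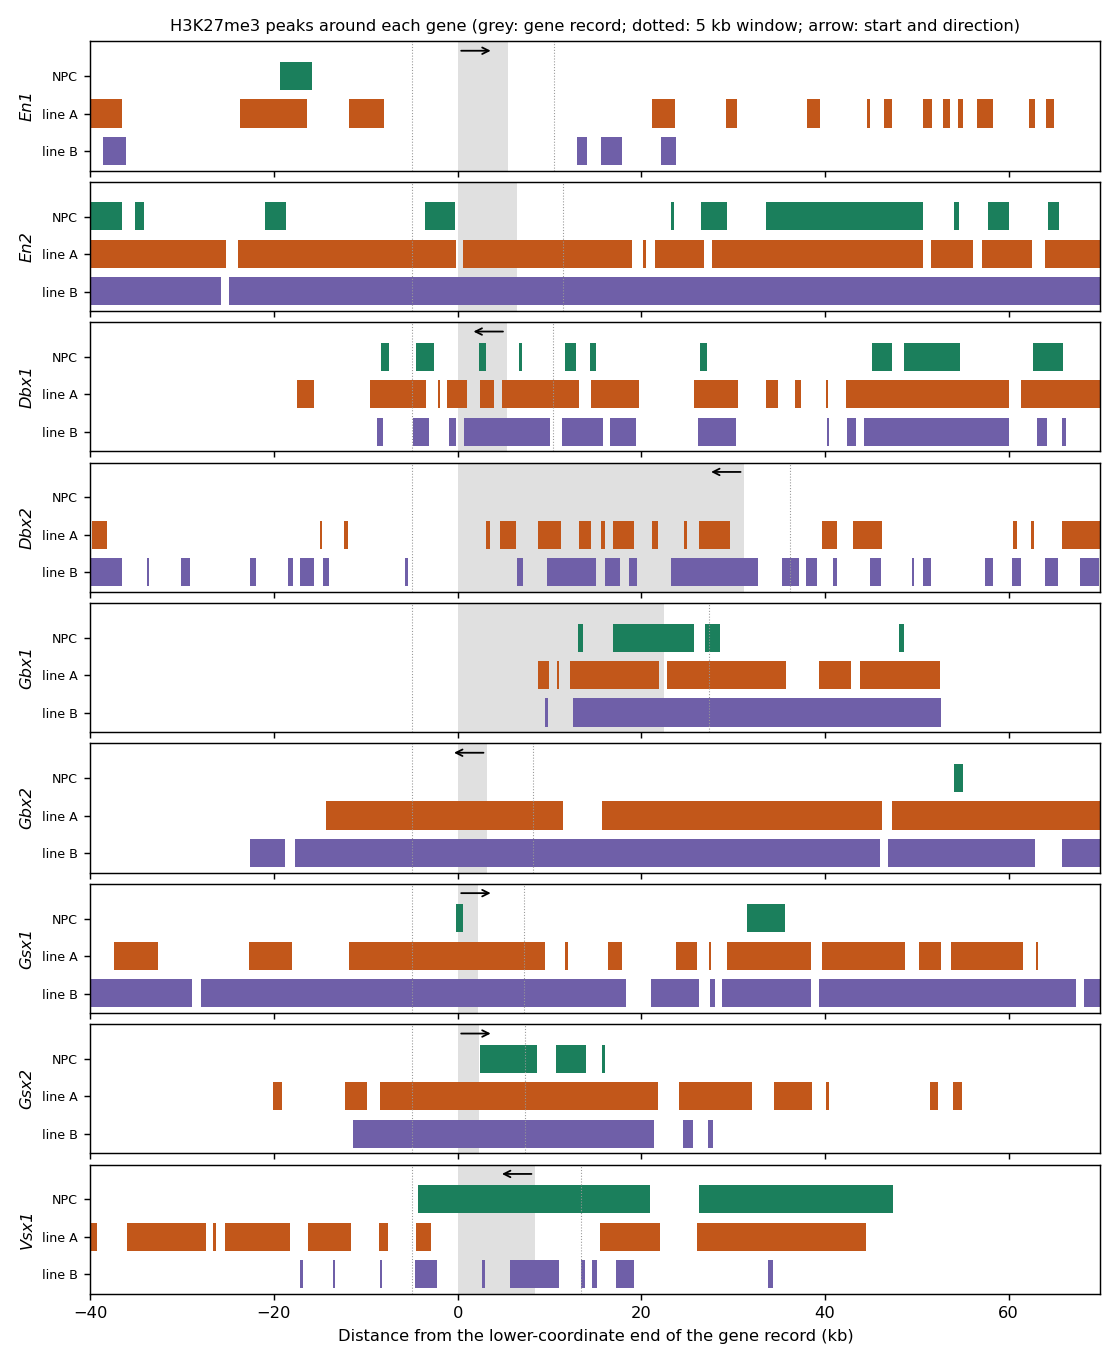
Peaks of the 3 lists around each member, in kb from the lower-coordinate end of the gene record; grey marks the record, dotted lines the window, and an arrow the start and direction of the 7 genes with a listed start. The fibroblast rows run through En2, Gbx2, Gsx1 and Gsx2 in long blocks, the En1 window is empty in each row, and the single 25.2 kb NPC peak spans Vsx1.

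The Engrailed paralogs stood apart from each other in both fibroblast lines. En1 (NCBI gene 13798, chromosome 1, 120602487 to 120607991) patterns the midbrain-hindbrain region, ventral spinal interneurons and the limb. None of its 15.5 kb window was covered in NPC, line A or line B, and 44.8% of all genes had 0 bp in each list likewise. The En1 record lay in a stretch without peaks of 133 kb in NPC, 29.1 kb in line A and 49.1 kb in line B. The nearest peak to the record was 15.9 kb away in NPC, 7.97 kb in line A and 7.48 kb in line B. In line A and line B the En1 locus was bare between marked flanks, which the 5 kb window does not reach. En2 (gene 13799, chromosome 5, 28165696 to 28172190), which acts with En1 in the midbrain and cerebellum, was covered over 3.31 kb of 16.5 kb in NPC (20.1%), 15.7 kb in line A (94.9%) and all 16.5 kb in line B. The NPC coverage was 1 peak that ended 288 bp short of the record's lower-coordinate end, and the record itself had 0 bp. In line A 2 peaks covered 90.4% of the record, and in line B 1 peak of 98.5 kb ran through it. With peaks less than 3 kb apart joined, En2 lay in a region of 143 kb in line A (chr5:28094909-28238067) and of 154 kb in line B (chr5:28113836-28267768), lengths that 0.263% and 0.176% of the joined regions of those lists reached. Both regions also contained Cnpy1. En1 minus En2 was -20.1 percentage points in NPC, -94.9 in line A and -100 in line B.

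The Dbx genes carried broken coverage in fibroblasts and little or none in NPC. Dbx1 (gene 13172, chromosome 7, 49631499 to 49636835, minus strand), which specifies the progenitors of commissural V0 interneurons, was covered over 3.21 kb of 15.3 kb in NPC (20.9%, 3 peaks), 10.9 kb in line A (71.1%, 5 peaks) and 11.7 kb in line B (76.5%, 3 peaks). In both fibroblast lines the longest of these peaks, of 8.31 kb in line A and 9.30 kb in line B, held the start, and the 5 kb upstream was covered over 100% in line A and 94.0% in line B. In NPC that upstream stretch was covered over 7.40%. Chromosome 7 was covered most of the 19 autosomes in NPC (14.9% of its length up to its last feature) and least in line B (3.54%), and the part of this in the Dbx1 values was not tested. Dbx2 (gene 223843, chromosome 15, 95623563 to 95654771, minus strand), expressed in a broader intermediate band of the neural tube, has the longest record of the set. Of its 41.2 kb window, 0 kb was covered in NPC, 13.2 kb in line A (32.0%) and 18.9 kb in line B (45.9%). Line A had 9 peaks inside the record, the longest of 3.33 kb, and none over the start. Line B had 6 peaks, and the longest, of 9.48 kb (chr15:95646810-95656288), lay over the start. Of the Dbx2 bases covered in line A, 60.1% were also covered in line B, and of those in line B, 41.9% in line A. Dbx1 minus Dbx2 was 20.9 points in NPC, 39.1 in line A and 30.6 in line B.

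The Gbx genes differed from each other in NPC and in fibroblasts in opposite directions. Gbx2 (gene 14472, chromosome 1, 89927962 to 89931176, minus strand), which fixes the hindbrain side of the midbrain-hindbrain organizer, was covered over 0 kb of its 13.2 kb window in NPC and over all of it in both fibroblast lines. A single peak of 25.7 kb in line A and of 63.8 kb in line B spanned the window. Gbx2 was the only member with at least 50% in both fibroblast lines and 0 bp in NPC, a pattern of 1.35% of all genes. Gbx1 (gene 231044, chromosome 5, 24504426 to 24526848), which acts in sensory and motor circuits of the spinal cord, was covered over 9.91 kb of 32.4 kb in NPC (30.6%), 15.8 kb in line A (48.6%) and 15.2 kb in line B (46.7%). Its coverage was one-sided in the same way in the 3 lists. The 5 kb at the lower-coordinate end had 0% in NPC, line A and line B, and the 5 kb at the higher end had 76.2%, 92.7% and 100%. In line B 1 peak of 40.1 kb began inside the record and ran outward past its higher end. All of the NPC coverage at Gbx1 lay under line B peaks and 91.6% under line A peaks. Gbx1 minus Gbx2 was 30.6 points in NPC, -51.4 in line A and -53.3 in line B.

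The Gsx genes were covered from end to end in both fibroblast lines. Gsx1 (gene 14842, chromosome 5, 147188696 to 147190947, plus strand) and Gsx2 (gene 14843, chromosome 5, 75075601 to 75077893, plus strand) set the identity of lateral ganglionic eminence progenitors, from which striatal and olfactory bulb neurons come. Their whole windows of 12.3 kb each were covered in both lines, as was that of Gbx2 in both lines and of En2 in line B. Whole coverage was thus found at 3 members (line A) and 4 (line B), against 0.736% and 1.20% of all genes, and at none in NPC, against 0.474%. In NPC Gsx1 had 0.740 kb covered (6.04%) by 1 peak, chr5:147188523-147189262, that lay across the start. That position differs from the NPC peak at Gsx2. There 4.82 kb was covered (39.2%) by 1 peak of 6.18 kb that began 182 bp past the 3′ end of the record, with 0 bp in the record and 96.4% of the 5 kb downstream. With peaks joined, line B held Gsx1 in a region of 155 kb that also contained Pdx1, a pancreas regulator, while the line A region was 23.9 kb and held Gsx1 alone. At Gsx2 the joined regions were 52.7 kb in line A and 32.8 kb in line B. Gsx1 minus Gsx2 was -33.2 points in NPC and 0 in line A and line B.

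Vsx1 (gene 114889, chromosome 2, 150680702 to 150689137, minus strand) ran against the rest of the set. It was covered over 17.7 kb of 18.4 kb in NPC (96.0%), 1.70 kb in line A (9.20%) and 8.03 kb in line B (43.6%). In NPC 1 peak of 25.2 kb, chr2:150676446-150701609, held the whole record and both sides, and 0.576% of all genes had as much of the window covered in that list. In line A the record had 0 bp. It lay in a bare stretch of 18.4 kb between a peak of 1.70 kb that ended 2.88 kb below the record and another of 6.57 kb that began 7.06 kb above it, in coordinates. In line B 4 peaks covered parts of the window, among them 1 of 5.34 kb over the start, and 35.8% of the record was covered. Of the NPC length at Vsx1, 43.2% lay under a peak of either fibroblast line and 10.0 kb under neither. Coverage of at least 50% in NPC and under 50% in both lines was a pattern of 1.42% of all genes.

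The difference between NPC and the fibroblast lines ran one way at most members. NPC coverage was at least 25 percentage points below line A at 6 members (En2, Dbx1, Dbx2, Gbx2, Gsx1 and Gsx2), against 12.52% of all genes, and below line B at the same 6, against 12.1%. The gaps ran from -32.0 points at Dbx2 to -100 points at Gbx2 for NPC minus line A, and from -45.9 to -100 points at the same genes for NPC minus line B. Vsx1 was the 1 member at least 25 points higher in NPC, by 86.8 points over line A (against 3.11% of all genes) and 52.4 points over line B (3.98%). With peaks less than 3 kb apart joined, the difference from line B was 24.6 points, under the threshold. Both comparisons share the NPC list and are not independent. The NPC list is also smaller, with 44807 peaks over 137 Mb against 86235 over 276 Mb in line A and 81972 over 236 Mb in line B. With the 44807 widest peaks of each list, the same 6 members were at least 25 points lower in NPC than in line A and in line B. For line A the share of all genes was then 11.3%, and for line B that share is not given here. The narrowest peak kept was 286 bp in NPC, 1327 bp in line A and 956 bp in line B. Only narrow peaks were dropped, which evened the number of peaks and not the covered length. The smaller covered length of the NPC list is therefore not accounted for.

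**Figure D3:**
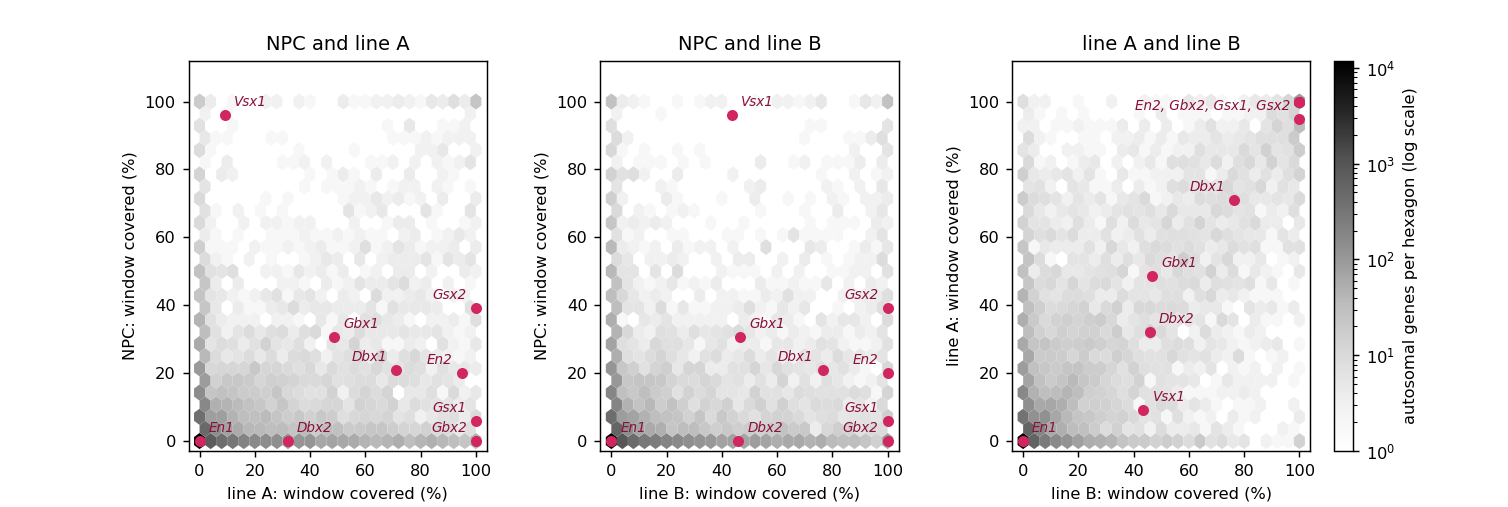
Covered share of the window, in percent, for all 20665 autosomal protein-coding genes (grey hexagons, number of genes on a log scale) and the 9 members (red points), for NPC against line A, NPC against line B and line A against line B. Vsx1, at 96.0% in NPC, sits above every other member in both NPC panels, En1 sits at 0% on each axis, and the remaining members lie below the diagonal there. In the line A and line B panel Vsx1 is farthest from the diagonal.

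Over the 5 kb windows, the fibroblast lines differed from each other mainly at Vsx1. Line A was 34.4 points below line B there, the only difference of at least 25 points in that direction (5.06% of all genes), and at no member was line A at least 25 points above line B (6.01% of all genes). The next widest gap was at Dbx2, with line A 13.9 points below line B. At the base level, the windows of Gbx2, Gsx1 and Gsx2 were wholly covered in both lines. The bases covered in both lines made up 94.9% of those covered in either at En2, 86.2% at Gbx1, 66.4% at Dbx1, 32.8% at Dbx2 and 21.1% at Vsx1.

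Overlap with NPC peaks could say little at En2, Gsx1 and Gsx2, whose windows were covered wholly or nearly so in both fibroblast lines. At Dbx1 67.5% of the NPC bases lay under line A peaks, which covered 71.1% of the window, and 83.3% under line B peaks, which covered 76.5%. The bases covered in both lines and not in NPC came to 12.3 kb at En2, 13.2 kb at Gbx2, 11.5 kb at Gsx1, 7.47 kb at Gsx2, 7.92 kb at Dbx2, 6.87 kb at Dbx1 and 5.24 kb at Gbx1, against 0.321 kb at Vsx1. The Gbx2, Dbx2 and Gsx2 records lay in stretches between NPC peaks of 1576, 1066 and 883 kb. Each lay near 1 end of its stretch, with the nearest NPC peak 50.8, 48.2 and 0.182 kb away. Such stretches of at least 800 kb, a length chosen after these values were seen, held 17.2% of all gene records in NPC, and 14.4% in line A and 10.7% in line B, where no member lay in one.

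Fibroblast coverage reached well past the windows. Within 2 kb of the record's ends, the mean covered share over the 9 members was 28.0% in NPC, 57.3% in line A and 67.2% in line B, against 7.35%, 12.2% and 12.8% over all genes. Without Vsx1 these means were 19.0% in NPC, 64.5% in line A and 69.4% in line B. Between 16 and 18 kb from the ends, the mean over the members was 6.86% in NPC, 41.2% in line A and 46.5% in line B, against 6.62%, 15.0% and 14.4% over all genes. The NPC mean varied from bin to bin, with 0.286% between 14 and 16 kb and 16.0% between 20 and 22 kb, against 6.61% and 6.72% over all genes. Between 38 and 40 kb the mean over the members was 14.6% in NPC, 47.1% in line A and 39.9% in line B, against 6.90%, 15.0% and 14.2% over all genes. These means rest on 9 genes.

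**Figure D4:**
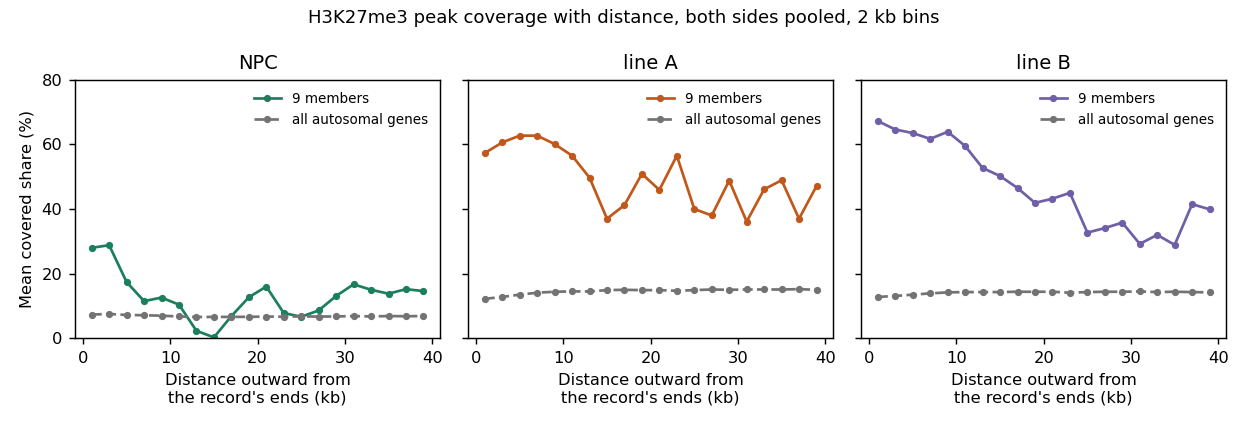
Mean covered share of bases, in percent, in 2 kb bins outward from both ends of the gene record, up to 40 kb, for the 9 members (solid) and all autosomal protein-coding genes (dashed) in each list. In both fibroblast lines the members stay above all genes throughout. In NPC they start at 28.0% and lie below all genes between 12 and 16 kb (0.286% against 6.61% in the outer of these bins). The NPC mean of the members is also slightly lower between 24 and 26 kb (6.66% against 6.78%), and reaches 16.7% between 30 and 32 kb.

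Neighbouring genes showed where some of these blocks ended. Of the 18 nearest protein-coding records on either side of the members, 0 had at least 50% of the window covered in NPC, 5 in line A and 5 in line B. Cnpy1, 28.6 kb from En2, was covered over 38.2% in NPC, 79.4% in line A and 89.5% in line B. Pdx1, 79.2 kb from Gsx1, was covered over 4.22% in NPC and 100% in both lines. Asb10, 5.85 kb beyond the marked end of Gbx1, was covered over 22.5%, 80.1% and 100%, and Agap3, 2.38 kb beyond the bare end, over 0% in each list. The windows of those last pairs overlap. LOC102637806, 0.899 kb from Gbx2, was covered over 0% in NPC, 98.4% in line A and 100% in line B. Its window overlaps that of Gbx2. Chic2 and Pdgfra, the nearest genes on either side of Gsx2, had 0% in each list, Pdgfra being a receptor gene of mesenchymal cells. Beside Vsx1, Acss1 was covered over 5.43% in NPC, 79.5% in line A and 8.05% in line B, the reverse of Vsx1 between NPC and line A. Marco, 97.5 kb from En1, was covered over 8.25%, 48.8% and 94.7%. The other neighbours were Insig2, Insig1, Nav2, Htatip2, Nell2, Ano6, Agap1, Polr1d and Entpd6, with at most 5.22% in NPC, 23.0% in line A and 10.8% in line B.

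Of 4 lists of genes that work in neural patterning, 3 lists of mostly transcription factors had a median covered share above 50% in both fibroblast lines. The patterning signals did not. The list of dorsoventral progenitor domains passed that level in NPC too, with a median of 52.3%. Over the 83 genes of the 4 lists, each counted once, 29 had at least 50% of the window covered in NPC, 49 in line A and 51 in line B. The median covered share was 12.4%, 64.8% and 74.3%. At least 50% in both lines with under 50% in NPC, found at 5 of the 9 members and 4.51% of all genes, was found at 23 of the 83. The reverse, at least 50% in NPC alone, was found at Gdf7, a roof plate signal, and Cyp26b1, a retinoic acid-degrading enzyme. Among 12 genes of the midbrain-hindbrain boundary, 2 were covered to at least 50% in NPC, 8 in line A and 11 in line B. Otx2, which marks the midbrain side opposite Gbx2, had 0% in NPC and 100% in both lines, as Gbx2 did. Sp8, with the same sum over the lists, had 100% in NPC, 0% in line A and 100% in line B. Pax2 had 83.5% in NPC, 99.1% in line A and 100% in line B. Sp5, a Wnt target, had 5.09%, 100% and 100%. Otx1 (0%, 9.04% and 83.2%) and Pax8 (0%, 13.6% and 0%) had the least over the 3 lists.

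Among 28 factors of dorsoventral progenitor domains, 15 were covered to at least 50% in NPC, 17 in line A and 19 in line B. The proneural gene Neurog2 and Prdm12 had 100% in each list and Neurog1 had 97.7% in NPC, 100% in line A and 94.1% in line B, while Dlx1, Dlx2 and Irx5 had 0% in each list, as En1 did. Among 26 factors of postmitotic neurons, the counts were 7 in NPC, 19 in line A and 21 in line B. Isl1 of motor neurons had 100% in each list, and Lhx5 had 92.2%, 93.0% and 95.9%. Lhx9 (19.6%, 15.2% and 0%), Gata2 (11.0%, 8.73% and 15.1%) and Foxp2 (19.9%, 0.638% and 12.9%) had the least. Among 22 patterning signal genes, the counts were 7 in NPC, 9 in line A and 5 in line B, with medians of 9.04%, 17.3% and 13.8%. Wnt3a, of the dorsal midline, had 86.1%, 96.9% and 95.5%, and Shh, the ventral signal, had 68.0%, 66.7% and 95.2%, while Bmp5 had 0% in each list and the Shh effector gene Gli3 had 1.32% in NPC and 0% in both lines. The retinoic acid-synthesis gene Aldh1a2 had 11.9%, 98.5% and 91.3%.

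**Figure D5:**
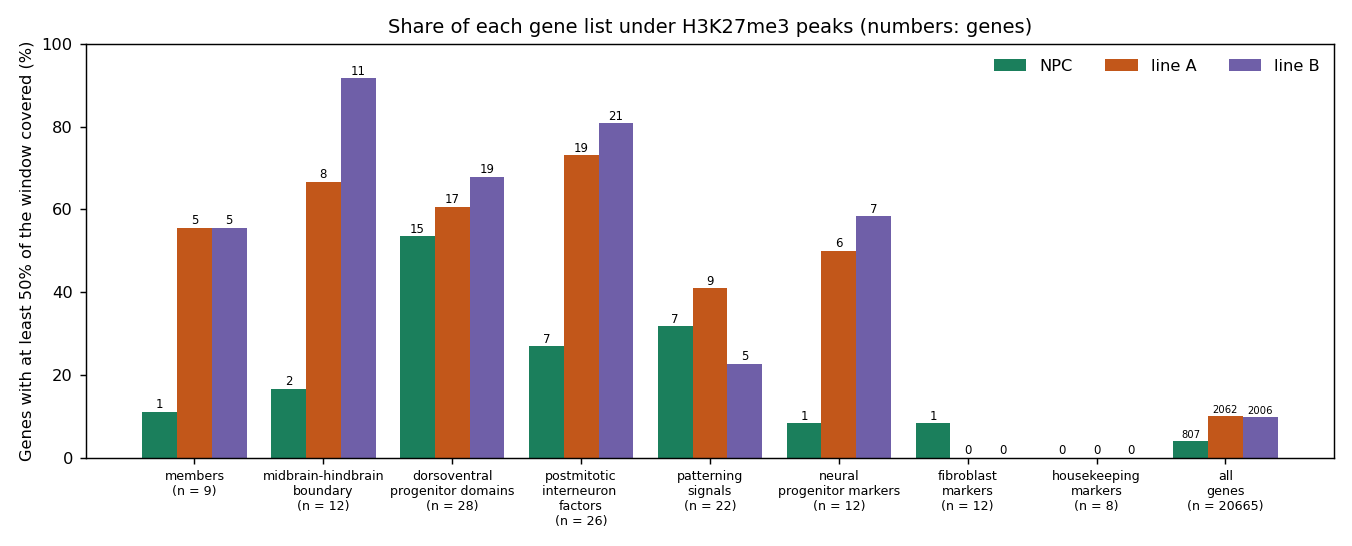
Share of genes with at least 50% of the window covered, in percent, for the 9 members, 4 lists of neural patterning genes, markers of neural progenitors and of fibroblasts, housekeeping genes and all autosomal protein-coding genes, with the number of genes above each bar. The members have 1 gene in NPC, 5 in line A and 5 in line B, the fibroblast markers 1, 0 and 0, and the housekeeping genes 0 in each list.

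The marker lists followed the labelled cell types only in part, and peaks are no measure of expression. Of 12 neural progenitor markers, 1 was covered to at least 50% in NPC, 6 in line A and 7 in line B. Sox1, Sox2, Nes, Pax6 and Olig2 had 0% in NPC, but in line A Sox2 also had 0% and Nes 16.6%. Vim, Notch1 and Slc1a3 had 0% in each list. Of 12 fibroblast markers, 1 was covered to that level in NPC (Pdgfrb, 57.9%) and 0 in either fibroblast line. The 3 genes whose covered shares were closest to the median of the members over the 3 lists were Lcn6 (19.0% in NPC, 73.0% in line A and 78.4% in line B), Morc2b and Slc17a4. The measure was the summed absolute difference, of 4.80, 5.11 and 7.31 percentage points, over 3 lists only.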

How the data were processed

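H3K27me3 peaks were analysed from 3 lists that the authors deposited for the series as a whole, each with the chromosome, start and end of its peaks in mm10 and no header, height, fold or p value. The submitters' processing notes name MACS2 2.1.1.20160309, Bowtie2 2.2.9, deepTools, Picard and DESeq2, and the builds dm6 and mm10, without saying what each was used for. Not given in the sources used here are the threshold and control of the peak calls, and which libraries were used or pooled. Starts were read as 0-based and are printed 1-based. Gene records were the 20665 autosomal protein-coding ones of RefSeq for GRCm38.p6, the assembly of mm10.

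The covered length of a window is the number of its bases inside peaks, and every peak counts alike, so a strong and a weak peak of equal width give equal values. A fixed 5 kb flank weighs more in short genes. Strand was taken from RefSeq promoters, matched for 7 of the 9 members. Coverage was tested on simulated data, where all 500 windows equalled a count base by base. Python 3.11.15, numpy 2.4.6 and pandas 2.3.3 were used. The members and gene lists were chosen with earlier results of these data known, and 1 listed symbol was matched as a synonym. The text names all members, their nearest neighbours, of each pathway list up to 3 of the most and 2 of the least covered genes (1 more where tied), and the 3 genes closest to the median member. Gdf7, Cyp26b1 and the marker genes named were chosen after their values were seen, and 1 marker gene is not reported here by name.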

Additional observations from a re-analysis of the deposited data

How the results depend on the processing

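The 12 counts of members were recomputed under 9 alternatives, and 98 of 108 recomputed counts stayed within 1.5 times the reported one. With peaks less than 3 kb apart joined, 8 members in line B had at least 50% of the window covered, in place of 5, and 0 were at least 25 points higher in NPC than in line B, in place of 1, since joining takes Vsx1 in line B to 71.3%. At a threshold of 25%, 3 members passed in NPC and 8 in line B. Within 5 kb of the transcription start, where 7 members have a value, 5 had any coverage in line A, against 31.9% of genes with a listed start. Of the 8 in the main count, En2 and Gbx1 have no listed start, and Vsx1 alone lost its coverage. Line A at least 25 points below line B was reported at 1 member. It held for 0 with flanks of 10 kb (4.60% of all genes), where line A minus line B at Vsx1 was -16.5 points, and at 50 points. With the gene record alone it held for 2, Dbx1 and Vsx1 (5.29% of all genes). Around the transcription start it also held for 2, Dbx2 and Vsx1 (7.81% of genes with a listed start). At the lower threshold, which was divided by 2, it held for 2 as well. The share of all genes moves with the setting too, so a changed count alone is not particular to the members. For joined peaks and for the changed thresholds that share is not given here. Joining peaks or lowering the threshold can only keep or raise the number of genes covered to a given level, in any set of genes. Of 15 differences of at least 25 points between lists, none changed sign in the 103 values that the alternatives gave. At Gbx2 and Dbx2 NPC stayed at 0% under every setting, so the sign there could not change. The alternatives also reuse the same 3 lists. En1 stayed at 0% in NPC, and reached 7.97% in line A and 4.32% in line B with flanks of 10 kb. No paired analysis was possible because the peak lists are not given per library. For the same reason no library could be left out, and no stricter peak threshold could be set. The lists hold no heights, so a narrow or weak mark below the authors' unstated threshold cannot be told from none.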
